A study of Mus musculus with 6 samples.

Results

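RNA of intraepithelial T cells was followed in mucosal libraries through 10 genes that mark these cells, namely Cd3e, Cd3g, Cd8a, Cd8b1, Itgae, Gzma, Gzmb, Ccl5, Cd7 and Cd160. The genes were listed by name, without a rule on measured values, but with earlier results of these data known. They are 10 of the 38561 genes counted, and all 10 were among the 16425 genes that passed the filter on low counts. Small intestinal mucosa of C57BL/6J mice of 8 to 12 weeks, both sexes, was sequenced after oligo(dT) selection as 6 libraries, 3 pools labelled Rbm47_IKO and 3 labelled wt, each made from the RNA of 3 mice according to the labels. In such knockout mice, floxed Rbm47 alleles are removed by a constitutive Cre under the Vil1 promoter, which is active in epithelial cells and not in T cells. The study's methods describe the controls as floxed mice on the same background, and its results name the tissue as jejunal mucosa. The labels name no treatment. Because mice were pooled, p values measure the spread between pools and not between mice.

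Intraepithelial T cells lie between the epithelial cells of the villus and are the main lymphocytes of this layer. They recognise antigen through a T cell receptor that signals through the CD3 chains, and most in the small intestine carry CD8, often as a pair of CD8 alpha chains in place of the alpha and beta pair of blood T cells. They are held in the epithelium by an integrin that binds E-cadherin, depend on epithelial cytokines such as IL-15, and store granzymes for killing damaged or infected cells.

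Rbm47, the gene deleted in the design, did not have the lower level that the labels imply. Its normalized CPM (counts scaled to the TMM library size) was 602.7, 624.6 and 619.8 in libraries labelled Rbm47-IKO, against 459.8, 449.9 and 472.1 for controls. The log2 difference was 0.42 (SE 0.10, edgeR adjusted p = 0.0751). The targeted gene thus does not bear out the labels, although counts over the whole gene do not resolve a deleted exon, and the libraries labelled Rbm47-IKO are called the labelled pools from here on. Totals were 31560320 to 38951830 counts per pool. The 8 epithelial markers summed to 11308 to 13882 CPM in the labelled pools and to 12636 to 13887 CPM in controls. T cell RNA was present in every pool, with at least 181 counts of Cd3e and 266 of Cd3g. In bulk mucosa, fewer T cells and less RNA of a gene per T cell cannot be told apart.

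None of the 10 genes differed between the labelled pools, in which Rbm47 was not lower, and the controls beyond the adjusted threshold. Of the 10 members, 0 were called higher and 0 lower by the quasi-likelihood test of edgeR (Benjamini-Hochberg adjusted p up to 0.05), where 2.7% of all genes tested were called (1.45% higher and 1.25% lower). At an unadjusted p under 0.05, 1 member of 10 was lower (Cd160), beside 16.8% of all genes (8.21% lower and 8.57% higher). The limma-voom test called 0 of the 10 as well, and DESeq2 0 of the 9 to which it gave an adjusted p (all but Cd8b1). Of the members, 6 of 10 had a log2 fold change below 0, as had 50.7% of all genes, and the median over the members was -0.12 against -0.0059 over all genes tested.

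Per counted length of the gene, the granzyme Gzma was the most abundant member and the co-receptor chain Cd8b1 the least. Mean normalized RPKM (CPM per kb of the counted gene length) over the 6 pools was 112.0 ± 21.0 (SD, n = 6) for Gzma, 33.7 ± 11.0 for Gzmb, 17.8 ± 2.84 for Ccl5 and 12.2 ± 2.21 for Cd7. It was 10.1 ± 1.60 for Cd3g, 7.27 ± 1.45 for Cd8a, 6.56 ± 1.05 for Itgae and 4.06 ± 0.460 for Cd3e, and lowest at 2.07 ± 0.713 for Cd160 and 0.381 ± 0.190 for Cd8b1. The order was nearly the same in every pool. Each gene was above the next in 6 of 6 pools, except that Cd8a was above Itgae in 5 of 6. Between pools, the ranges of neighbours overlapped except for Gzma over Gzmb, Itgae over Cd3e and Cd160 over Cd8b1. These levels compare genes within the libraries, by a length that can differ from that of the main transcript, and carry no test.

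**Figure D1:**
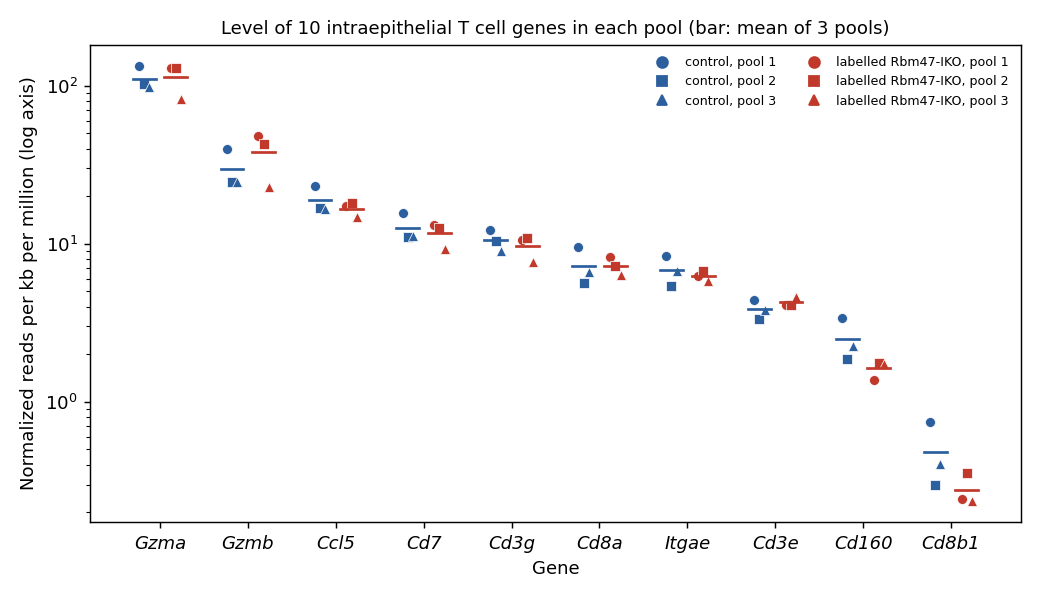
Normalized RPKM (log axis) of the 10 genes in each of the 3 control pools and the 3 pools labelled Rbm47-IKO, with a bar at the mean of 3 pools. The genes span from Gzma at 112.0 to Cd8b1 at 0.381 on average, and only for Cd160 do the labelled pools and the control pools not overlap.

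Cd3e and Cd3g encode the epsilon and gamma chains of the CD3 complex, through which the T cell receptor signals, and lie near each other on chromosome 9 of GRCm38. Cd3e (ENSMUSG00000032093, 44998743 to 45009590, minus strand) had a normalized CPM of 5.86, 5.91 and 6.62 in labelled pools 1, 2 and 3 and 6.35, 4.77 and 5.43 in control pools 1, 2 and 3. The pools overlapped, with the highest value in labelled pool 3 and the lowest in control pool 2. This gave a log2 fold change of 0.15 (SE 0.18, 95% interval -0.28 to 0.58, edgeR adjusted p = 0.78). Cd3g (ENSMUSG00000002033, 44969572 to 44980431, minus strand) had 11.3, 11.6 and 8.15 CPM against 13.0, 11.2 and 9.58 in controls. These pools overlapped as well, and here labelled pool 3 was the lowest of all 6. Its log2 fold change was -0.12 (SE 0.19, 95% interval -0.57 to 0.33, edgeR adjusted p = 0.846). The ratio of Cd3e to Cd3g per length was 0.386, 0.379 and 0.605 in the labelled pools against 0.363, 0.317 and 0.423, so that labelled pool 3, high for Cd3e and low for Cd3g, stood above the rest.

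The RefSeq promoter windows of GRCm38.p6, which run from 250 bases before to 50 bases after a transcription start, were searched on both strands for the cores bound by families of transcription factors with known roles in T cells, TGTGGT for RUNX, TCACAC for T-box and ACTTCC for ETS factors. RefSeq windows were found for 6 of the 10 members (Cd3e, Cd3g, Cd8a, Gzma, Gzmb and Cd160, which has 2), 7 windows in all. The match in Cd3e, at position -18 from its start at chr9:45009616-45009637 on the minus strand, is shown because it is the only match of the 3 motifs in a CD3 window, with the ETS core in capitals.
Cd3e, ETS core: ccctctacACTTCCtgtgtggg
The ETS core was present in 2 of the 7 member windows (Cd3e and Cd160) and in 23.8% of all 32851 windows. A match is a description of letters and not a bound site.

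Cd8a and Cd8b1 encode the alpha and beta chains of the CD8 co-receptor and neighbour each other on chromosome 6. Cd8a (ENSMUSG00000053977, 71373427 to 71379171, plus strand) had 25.8, 22.8 and 19.7 CPM in the labelled pools and 30.0, 17.5 and 20.6 CPM in controls. The control pools spanned the labelled pools on both sides. The log2 fold change of Cd8a was 0.0050 (SE 0.21, 95% interval -0.48 to 0.49, edgeR adjusted p = 0.995), and its sign was negative with library size as the only scaling. Cd8b1 (ENSMUSG00000053044, 71322836 to 71337477, plus strand) was near the lower end of what was tested, with 12, 19 and 11 counts in the labelled pools and 36, 16 and 21 in controls. That is 0.347, 0.502 and 0.337 CPM against 1.06, 0.422 and 0.576 CPM. Labelled pool 2 lay above control pool 2, so that the groups overlapped, and control pool 1 stood above the other 5 pools. Its log2 fold change was -0.78 (SE 0.45, 95% interval -1.82 to 0.26, edgeR adjusted p = 0.451), an interval wide enough to hold both no difference and a fall of more than 2-fold. Without control pool 1 the log2 fold change of Cd8b1 was -0.33.

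Cd8a exceeded Cd8b1 per length in every pool, by 12.8-fold to 33.8-fold. The ratio was 33.8, 20.6 and 26.5 in the labelled pools and 12.8, 18.9 and 16.2 in controls. All 3 labelled pools lay above all 3 control pools. The log2 ratio was higher by 0.74 (SE 0.26) in the labelled pools, with an exact two-sided permutation p of 0.1, the smallest that 3 pools against 3 allow, and 0.333 after adjustment over the 10 ratios tested. Of all genes tested, 23.3% had levels whose pools did not overlap (11.6% lower and 11.7% higher). The denominator rests on the few counts of Cd8b1 given above.

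Itgae encodes the integrin alpha E chain (CD103), which pairs with beta 7 and binds E-cadherin on epithelial cells. Itgae (ENSMUSG00000005947, chromosome 11, 73090583 to 73147446, plus strand) had 28.8, 30.9 and 26.6 CPM in the labelled pools and 38.6, 24.8 and 30.7 CPM in controls. As for Cd8a, control pool 1 was the highest and control pool 2 the lowest of all 6. Its log2 fold change was -0.12 (SE 0.17, 95% interval -0.51 to 0.27, edgeR adjusted p = 0.81), and 0.052 without control pool 1. Its partner Itgb7, the beta 7 chain, had a log2 fold change of -0.34 (SE 0.16, edgeR adjusted p = 0.357), and -0.21 without control pool 1. Its ligand Cdh1, which encodes E-cadherin and is made by the epithelium, had 0.061 (SE 0.14, edgeR adjusted p = 0.899). Haspin, which lies on the other strand within Itgae, shares 0 exon bases with it.

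Gzma and Gzmb encode granzymes A and B, proteases released from cytotoxic granules into target cells. Gzma (ENSMUSG00000023132, chromosome 13, 113093825 to 113100979, minus strand) had 113.4, 113.2 and 72.0 CPM in the labelled pools and 116.2, 89.8 and 85.5 CPM in controls. Labelled pools 1 and 2 were close to control pool 1, and labelled pool 3 was the lowest. The log2 fold change of Gzma was 0.035 (SE 0.20, 95% interval -0.44 to 0.51, edgeR adjusted p = 0.962). Gzmb (ENSMUSG00000015437, chromosome 14, 56258856 to 56262260, minus strand) had 67.8, 61.0 and 32.3 CPM against 56.0, 34.8 and 35.0 CPM. It had the largest positive log2 fold change of the 10 genes, 0.36, but the spread within the labelled pools, 2.10-fold from lowest to highest, exceeded the fitted difference of 1.28-fold. With an SE of 0.30 and a 95% interval of -0.34 to 1.05, the edgeR adjusted p was 0.638. The ratio of Gzma to Gzmb per length was 2.70, 3.00 and 3.60 in labelled pools and 3.35, 4.17 and 3.94 in controls, with overlap (log2 difference -0.31, SE 0.15, exact permutation p = 0.2, adjusted 0.4). Prf1, which encodes the pore protein perforin through which granzymes enter cells, had a log2 fold change of -0.077 (SE 0.47, edgeR adjusted p = 0.964).

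The RUNX core is shown for the granzyme genes and for Cd160 because they are the members whose windows hold it, with the match in capitals, read along the strand of the gene. ACCACA is TGTGGT on the other strand.
Gzma, position -50, chr13:113101018-113101039: agaacaaaACCACAtcctttgc
Gzmb, position -93, chr14:56262414-56262435: tatgccctTGTGGTcttgccct
Gzmb, position -34, chr14:56262355-56262376: ggttctgcTGTGGTtacttcat
Cd160, position -76, chr3:96829414-96829435: ctctatcaACCACAcccacaca
Cd160, position -101 from its other start, chr3:96814609-96814630: acccattcTGTGGTttttcaaa
All of these genes lie on the minus strand. The RUNX core was present in 4 of the 7 member windows and in 16.8% of all windows, and the T-box core in 3 of the 7 (Gzmb and both windows of Cd160) and in 14.5% of all windows. TGTGGT and TCACAC can share bases, and no matches shown here overlap. In Gzmb the T-box core lies closest to the start, at position -15.
Gzmb, T-box core, chr14:56262336-56262357: catgattcTCACACaagtactc
The log2 fold changes of the 3 members that hold a RUNX core were 0.035 for Gzma, 0.36 for Gzmb and -0.62 for Cd160, and none of them passed the adjusted threshold.

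Ccl5 encodes a chemokine (RANTES) that memory-type CD8 T cells make. Ccl5 (ENSMUSG00000035042, chromosome 11, 83525778 to 83530518, minus strand) had 16.6, 17.3 and 14.2 CPM in the labelled pools and 22.2, 16.2 and 16.0 CPM in controls. Control pool 1 was the highest, and the other 5 pools lay within 14.2 to 17.3 CPM. The log2 fold change was -0.18 (SE 0.17, 95% interval -0.57 to 0.21, edgeR adjusted p = 0.692), and -0.0043 without control pool 1. Relative to Cd3e, Ccl5 was 4.23, 4.37 and 3.21 in the labelled pools and 5.24, 5.07 and 4.40 in controls. All labelled pools were below all control pools, by a narrow margin, with a log2 difference of -0.32 (SE 0.16, exact permutation p = 0.1, adjusted 0.333), and of -0.18 without labelled pool 3.

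Cd7 encodes a surface receptor of T and natural killer cells. Cd7 (ENSMUSG00000025163, chromosome 11, 121036747 to 121039418, minus strand) had 15.0, 14.3 and 10.5 CPM in the labelled pools and 17.8, 12.6 and 12.6 CPM in controls. Labelled pools 1 and 2 lay between the control pools, and labelled pool 3 below them. Its log2 fold change was -0.11 (SE 0.20, 95% interval -0.58 to 0.36, edgeR adjusted p = 0.863). Cd7 shares 122 exon bases with Gm11775 on the other strand, and the use of strand in counting is not given in the sources used here. Gm11775 had 102, 110 and 83 counts against 161, 180 and 236 in controls (log2 fold change -0.93, edgeR adjusted p = 0.074), fewer than the 344 to 606 counts of Cd7 in any pool. Its part in the value of Cd7 was not tested.

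Cd160 encodes a receptor of cytotoxic intraepithelial T cells and natural killer cells that binds the epithelial protein HVEM, and it was the only member whose pools did not overlap. Cd160 (ENSMUSG00000038304, chromosome 3, 96798763 to 96829351, minus strand) had 3.64, 4.67 and 4.59 CPM in the labelled pools, in which Rbm47 was not lower, and 9.0, 4.90 and 5.95 CPM in controls, or 126, 177 and 150 counts against 306, 186 and 217. The groups came close, since the highest labelled pool had 4.67 CPM and the lowest control pool 4.90 CPM. The means were 4.30 ± 0.575 CPM (SD, n = 3) and 6.62 ± 2.13 CPM (SD, n = 3). The fitted level in the labelled pools was 0.651 of that in controls, a log2 fold change of -0.62 (SE 0.26, 95% interval -1.23 to -0.0059), with an unadjusted edgeR p of 0.0483. Cd160 did not pass after adjustment over all genes (edgeR adjusted p = 0.294, and 0.204 to 0.402 in the other settings). Without control pool 1 the log2 fold change was -0.34 (edgeR adjusted p = 0.565). Of all genes tested, 11.6% had every labelled pool below every control pool.

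Relative to Cd3e, Cd160 was 0.337, 0.429 and 0.377 in the labelled pools and 0.770, 0.559 and 0.596 in controls. This ratio separated the groups more widely than the level of Cd160 itself, since the lowest control ratio was 0.559 and the highest labelled ratio 0.429. The separation is for Cd3e as the denominator only. Cd3e over Cd3g was itself highest in labelled pool 3 (0.605), and Cd160 over Cd3g was not tested. The log2 difference was -0.74 (SE 0.17), and the exact permutation p was the smallest possible, 0.1 (adjusted 0.333). With each pool left out in turn it was -0.84 to -0.60. Tnfrsf14, which encodes HVEM, had a log2 fold change of 0.089 (SE 0.18, edgeR adjusted p = 0.879). Cd160 shares 68 exon bases with Pdzk1 on the other strand, a scaffold gene of the brush border with 6556 to 10051 counts per pool (log2 fold change -0.22, edgeR adjusted p = 0.426). Its part in the value of Cd160 was not tested.

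**Figure D2:**
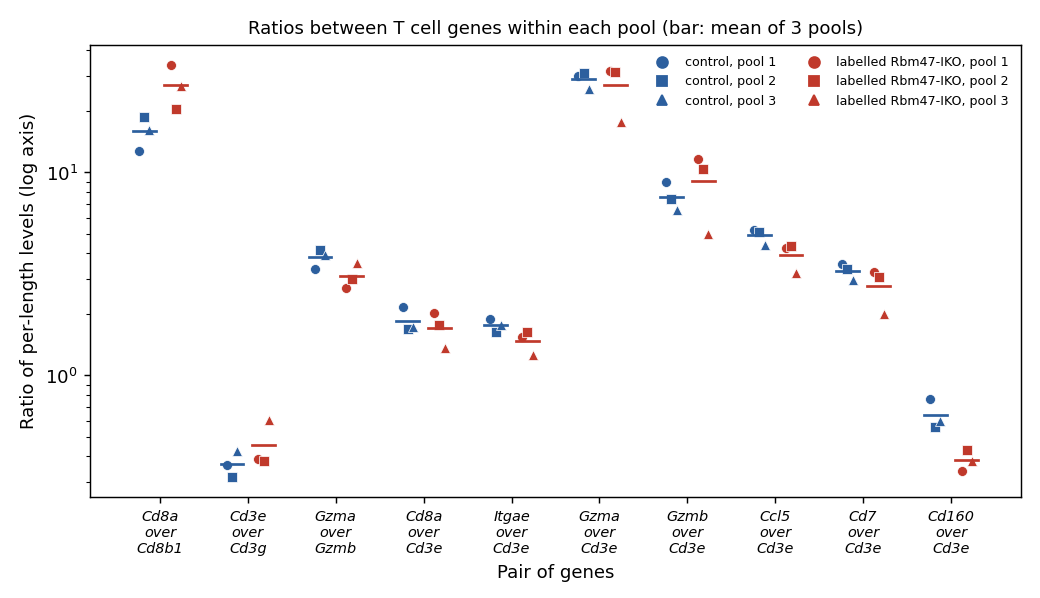
Ratio of per-length levels (log axis) for 10 pairs of the genes in each pool, with a bar at the mean of 3 pools for controls and for pools labelled Rbm47-IKO. The pools do not overlap for Cd8a over Cd8b1, Ccl5 over Cd3e and Cd160 over Cd3e, and the exact permutation p is 0.1 for each of these 3.

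A ratio within a pool does not depend on the scaling of that pool. Of the 10 ratios, 3 reached 0.1, the smallest p that 3 pools against 3 allow, and adjusted p values over the 10 ran from 0.333 to 1.0. By the exact permutation test no ratio could have passed 0.05, so that test cannot decide whether a ratio differed. Relative to Cd3e, the log2 difference between labelled and control pools was -0.13 for Cd8a, -0.26 for Itgae, -0.14 for Gzma, 0.16 for Gzmb and -0.27 for Cd7 (exact permutation p = 0.6, 0.2, 1.0, 0.8 and 0.4). Without labelled pool 3 it was 0.029 for Cd8a, -0.15 for Itgae, 0.13 for Gzma, 0.55 for Gzmb and -0.057 for Cd7, so that the sign turned for Cd8a and Gzma. The 7 ratios over Cd3e share that denominator, and labelled pool 3, with its high Cd3e, had the lowest ratio over Cd3e for Cd8a, Itgae, Gzma, Gzmb, Ccl5 and Cd7. The separations of Ccl5 and Cd160 thus hold for Cd3e as the denominator, and their ratios over Cd3g were not tested.

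**Figure D3:**
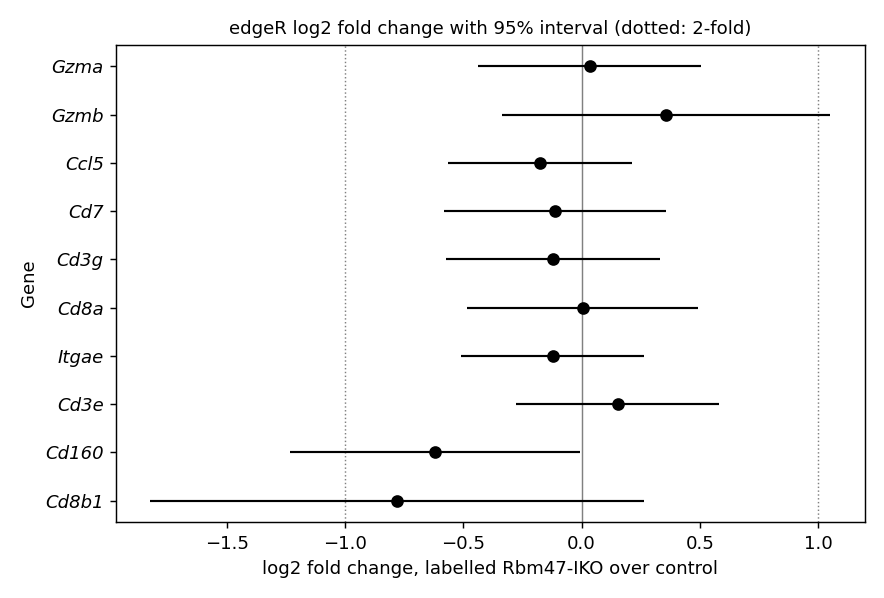
Log2 fold change of each gene (edgeR, libraries labelled Rbm47-IKO over controls) with its 95% interval, dotted lines marking 2-fold in either direction. The interval of Cd160 ends just under 0, at -0.0059, all others include 0, and those of Gzmb, Cd160 and Cd8b1 reach past 2-fold.

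For 7 of the 10 genes the 95% interval lay within 2-fold of no difference, as it did for 62.9% of all genes tested. The exceptions were Cd8b1 and Cd160 on the lower side and Gzmb on the higher side. For Cd3e, Cd3g, Cd8a, Itgae, Gzma, Ccl5 and Cd7, a change of 2-fold or more was thus outside the interval, while smaller differences in either direction were not.

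Pools of the same label differed from each other in the members as a whole. Control pool 1 was the highest of the control pools for 10 of 10 members, as it was for 37.4% of all genes tested, and the highest of all 6 pools for 8. Labelled pool 3 was the lowest of the labelled pools for 8 of 10, against 38.4% of all genes, and it was so also for 8 of the 8 epithelial markers, which summed to 13476, 13882 and 11308 CPM in the labelled pools. The summed CPM of the 10 genes, in which the granzymes weigh most, was 288.5, 282.1 and 195.1 in the labelled pools and 310.2, 217.0 and 222.0 in controls. Averaged with equal weight, the members deviated from their own means by 0.021, 0.080 and -0.27 log2 units in the labelled pools and by 0.43, -0.18 and -0.073 in controls. Ccl5 followed this mean most closely (root mean square difference 0.0575 log2 units) and Gzmb least (0.321).

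**Figure D4:**
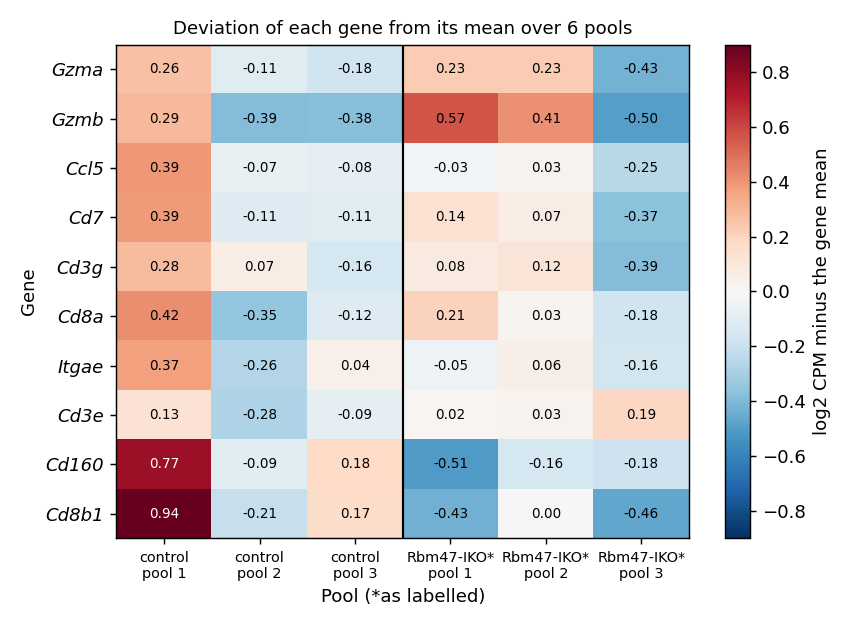
Deviation of log2 CPM from the mean over 6 pools for each gene (rows) and pool (columns), with the value in each cell and control pools left of the line. Control pool 1 is above the gene mean for all 10 genes, and labelled pool 3 is below it for all but Cd3e.

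Markers of other cells also differed between pools of a group. Smooth muscle genes, 6 in number, summed to 360.9, 585.7 and 3302 CPM in the labelled pools and to 90.7, 2803 and 313.1 CPM in controls. They were lowest in control pool 1 and highest in labelled pool 3, with 0 of 6 genes called. The 8 fibroblast and endothelial genes summed to 147.4, 226.0 and 318.8 CPM against 96.4, 403.8 and 149.4 CPM. Of these, 3 were above 0 in log2 fold change, 5 below and 0 called. Of 8 myeloid genes, 3 were above 0 and 5 below (median -0.046), and of 3 tested mast cell genes 1 was above and 2 below, with 0 called. The 8 pan-leukocyte genes summed to 124.2, 149.9 and 125.2 CPM against 168.0, 153.5 and 191.7 CPM, with 7 of 7 tested genes below 0 in log2 fold change, 0 called and Ptprcap at 0 in all pools. Of those 7, 2 were lower at an unadjusted p under 0.05, both without overlap of the pools. Of all genes, 8.21% were lower at that p, 11.6% were lower without overlap and 50.7% were below 0. The 8 B cell and plasma cell genes summed to 59.0 to 119.0 CPM against 101.2 to 162.3 CPM, with 8 of 8 below 0 and 0 called. The pools of 3 of these 8 did not overlap, all of them lower, and 0 had an unadjusted p under 0.05. Of the 7 genes listed for natural killer and innate lymphoid cells, which share Gzma, Gzmb, Cd7 and Cd160 with intraepithelial T cells, Klra8 was at 0 in all pools, Ncr1 had at most 9 counts, and 3 passed the filter. That list summed to 26.4 to 38.0 CPM against 8.65 to 22.5 CPM. Klra8, Ncr1 and Klrb1c, with at most 20 counts each in any pool, added little to this sum. It therefore does not measure RNA of natural killer cells. Of the 3 tested genes 1 was called higher, beside 1.45% of all genes. This was Areg, which encodes a growth factor that epithelial cells also make (log2 fold change 1.56, edgeR adjusted p = 0.00875). Without labelled pool 2 no gene was called at all, Areg included, and 1729 genes had an unadjusted edgeR p under 0.05. All 3 tested genes were above 0, and 2 of the 3, Areg and Klrb1c, were higher at an unadjusted p under 0.05 (8.57% of all genes). The pools of these 2 did not overlap, beside 11.7% of all genes higher without overlap. Klrb1c, a receptor gene of natural killer cells, had 16, 20 and 12 counts against 8, 1 and 3 (log2 fold change 1.98, SE 0.65, edgeR adjusted p = 0.172). The part of these cells in the values of the members was not tested.

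The other genes of these cells were read from 5 lists. Of 20 tested genes of the T cell receptor and its signalling, 0 were called in either direction (1 was lower at an unadjusted p under 0.05) and 18 had a log2 fold change below 0, with a median of -0.25, where 8.21% of all genes were lower at such a p and 50.7% were below 0. Control pool 1 was the highest of the controls for 17 of these 20 genes and the highest of all 6 pools for 16. The list summed to 86.3 CPM in control pool 1, to 62.7 and 63.9 CPM in the other controls and to 59.3, 67.3 and 60.2 CPM in the labelled pools. Cd3d and Cd247, which encode the delta and zeta chains beside Cd3e and Cd3g, had -0.21 (SE 0.30, edgeR adjusted p = 0.819) and -0.36 (SE 0.29, edgeR adjusted p = 0.621). The kinases at the start of the signal, Fyn, Lck and Zap70, had -0.18, -0.0074 and -0.11 (edgeR adjusted p = 0.644, 0.992 and 0.863), and the sign of Lck depended on the tool. Of 14 tested cytotoxic and natural killer receptor genes, 0 were called (1 lower at an unadjusted p under 0.05) and 10 were below 0, with a median of -0.098, beside the same shares of all genes. The granule genes Srgn and Ctsw had -0.23 and -0.13, and the receptor gene Cd244a had -0.14 (edgeR adjusted p = 0.598, 0.858 and 0.813).

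Of 16 genes of homing and retention, 0 were called (at an unadjusted p under 0.05, 1 was higher and 0 lower) and 14 were below 0, with a median of -0.36, beside 2.7% of all genes called, 8.57% higher and 8.21% lower at such a p and 50.7% below 0. Ccr9, the receptor that brings T cells to the small intestine, had 4.77, 5.41 and 5.15 CPM in the labelled pools and 10.5, 5.38 and 6.67 CPM in controls, a log2 fold change of -0.56 (SE 0.26, edgeR adjusted p = 0.347), and -0.24 without control pool 1. As for Cd160, control pool 1 was the highest for Ccr9. Over the list, control pool 1 was the highest of the controls for 6 of 16 genes, beside 37.4% of all genes tested. The epithelial ligand gene of Ccr9, Ccl25, had -0.20 (SE 0.12, edgeR adjusted p = 0.453). Itga1, an integrin chain that binds collagen, had -0.16 (SE 0.37, edgeR adjusted p = 0.9). Of 17 tested genes for ligands and cytokines that these cells read, most of them epithelial, 0 were called (at an unadjusted p under 0.05, 3 were lower and 0 higher) and 10 were below 0, with a median of -0.13, beside the same shares of all genes. The pools of 5 of these 17 did not overlap, all of them lower, beside 11.6% of all genes lower and 11.7% higher without overlap. Of the T cell receptor and signalling genes 4 of 20 did not overlap, all lower. Without overlap, 2 of 14 cytotoxic and natural killer receptor genes were lower and 1 higher, and 3 of 16 homing genes were lower and 1 higher. Il15, the survival cytokine, had 0.023 (SE 0.15, edgeR adjusted p = 0.967), Btnl1, a butyrophilin-like gene read by gamma delta T cells, 0.0053 (SE 0.14, edgeR adjusted p = 0.992), and Sectm1b, of the family that binds CD7, -0.16 (SE 0.14, edgeR adjusted p = 0.66). B2m, the light chain of MHC class I, was lower in every labelled pool, with -0.44 (SE 0.16, edgeR adjusted p = 0.221). In these 4 lists limma-voom also called 0 genes, as did DESeq2 among the genes to which it gave an adjusted p.

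Of 18 tested transcription factors of intraepithelial T cells, 1 was called higher and 0 lower, beside 1.45% and 1.25% of all genes. At an unadjusted p under 0.05, 3 were lower and 2 higher, beside 8.21% and 8.57% of all genes. In all, 13 were below 0, with a median of -0.085. Without overlap of the pools, 3 were lower and 2 higher, beside 11.6% and 11.7% of all genes. The called gene was Sox13, a factor of gamma delta T cells that other cells also express, with 175.9, 180.8 and 173.4 CPM in the labelled pools and 109.7, 103.4 and 113.1 CPM in controls. Its pools were well apart, with a log2 fold change of 0.70 (SE 0.094, edgeR adjusted p = 0.0145). With a pool left out it was 0.67 to 0.73, and the call was lost without labelled pool 1, 2 or 3 or control pool 3 (edgeR adjusted p = 0.0904, 0.116, 0.0552 and 0.0546). It was also lost with the pool number as a block, at the same log2 fold change of 0.70 (edgeR adjusted p = 0.0711). Id3 had 0.57 (SE 0.16, edgeR adjusted p = 0.121) and passed with DESeq2 (0.58, adjusted p = 0.0325), and Zbtb7b had 0.25 (SE 0.13, edgeR adjusted p = 0.388). Mean CPM over the 6 pools was 142.7 for Sox13, 110.9 for Id3 and 465.7 for Zbtb7b, the highest of this list. It was 5.81 for Runx3 of the same list and 5.82 for Cd3e. These 3 genes thus cannot be read as RNA of T cells alone, and which cells made it was not tested. In its pattern over pools Sox13 was unlike the members, for which control pool 1 was the highest of the controls.

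**Figure D5:**
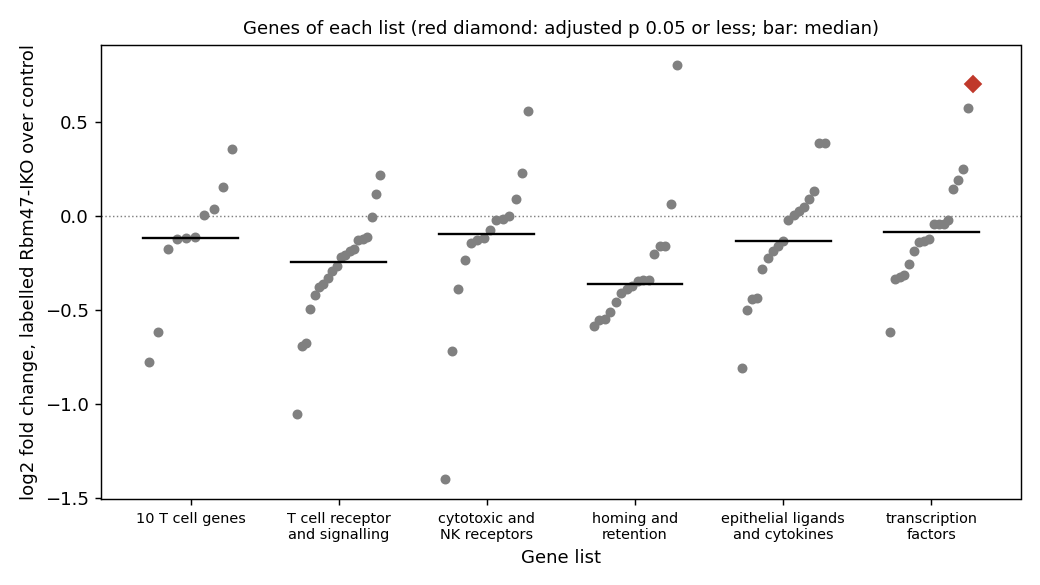
Log2 fold change (edgeR, libraries labelled Rbm47-IKO over controls) of each tested gene of the 10 T cell genes and of 5 further lists, with a bar at the median of each list. Medians run from -0.36 for homing and retention to -0.085 for transcription factors. Sox13, at 0.70 and expressed also by other cells, is the only gene past the adjusted threshold.

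By the root mean square difference between a gene's centred log2 CPM over the 6 pools and the mean of the members, the 5 most similar genes outside the 10 were Zfp783 (0.0649 log2 units), Runx3 (0.0653), Ift140 (0.0662), Lypd8 (0.0676) and Gm15545 (0.0698). Runx3 encodes a RUNX factor of CD8 T cells and was the only one of these 5 in any of the lists. It had 5.89, 6.13 and 4.59 CPM in the labelled pools and 7.23, 5.11 and 5.93 CPM in controls, with control pool 1 the highest and labelled pool 3 the lowest, as for Gzma, Ccl5, Cd7, Cd3g and Cd8b1. Its log2 fold change was -0.14 (SE 0.21, edgeR adjusted p = 0.837). With only 6 pools, genes of unrelated cells can also lie close to this mean, and the order is a description.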

How the data were processed

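Mucosal RNA of 6 pools was analysed, grouped by the genotype in the labels. The authors deposited for each pool the counts of reads on 38561 Ensembl genes, not normalized, with CPM and RPKM columns that recomputation from those counts gave again within rounding. The deposited CPM divides each count by its pool's total, the deposited RPKM further divides by gene length, and neither was used further. The submitters' processing notes name STAR 2.5.1a, Subread featureCounts 1.4.6-p5 and GRCm38. Symbols came from GENCODE M21 (36639 of 38561 genes, the rest holding 0.369% of counts), which gave 158 of 159 listed symbols (all but Trdc), and promoter windows from RefSeq GRCm38.p6.

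Counts of genes past filterByExpr were scaled by TMM, and the genotypes were compared with edgeR 4.0.16 (quasi-likelihood test) in R 4.3.3 (limma 3.58.1, DESeq2 1.42.0, Python 3.11.15), with Benjamini-Hochberg adjustment over all genes tested and the study's threshold of 0.05. CPM and per-length values in the text use TMM library sizes. Ratios were compared with two-sided exact permutation tests, adjusted over 10 ratios. For likeness, 0.1 was added to CPM before log2. The gene test was checked on simulated counts. Depth was 31560320 to 38951830 counts per pool, so that 3 counts, taken as the floor, are 0.0770 to 0.0951 CPM. Reads are not independent molecules, and the floor covers counting error only. Every pair of pools differed in its counts, and all 6 pools were used.

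The genes named were Rbm47, the 10 members, their direct partners (1 of which is not reported here), from each list the called genes and the 3 with the highest mean CPM, and the 5 genes most similar over pools. Areg, Klrb1c, Pdzk1, Gm11775, Haspin, Klra8, Ncr1 and Ptprcap are named besides, picked with their values known. The lists, like the members, were chosen with earlier results of these data known. Alternatives were other scalings (RLE, library size), DESeq2, limma-voom, 2 other filters, removal of immunoglobulin genes, the pool number as a block and each pool left out in turn. Protein sequences were not used here.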

Additional observations from a re-analysis of the deposited data

How the results depend on the processing

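No member was called in any of 78 values from other settings and 60 with a pool left out, taken over the 10 genes. The fit without pool 2 labelled Rbm47-IKO called no gene at all. The fit without control pool 3 called 7 genes higher and 4 lower. In these 2 fits the absence of calls among the members says little. Cd8b1 was not tested under the filter of 1 CPM in 3 pools and had no adjusted p from DESeq2. Over all genes, DESeq2 called 616 higher and 516 lower and the replicate block 63 and 37. Of the transcription factors, DESeq2 called 2 higher (Sox13 and Id3) and the block 0 (Sox13 at 0.70, adjusted p = 0.0711). Near 0, signs turned for Cd8a with library size only (-0.011) and with the filter of 1 CPM (-0.0012), for Btnl1 with library size only (-0.0018), and for Lck with limma-voom (0.022), no filter (0.0038) and the replicate block (0.012). The labels share pool numbers. The correlation of same-numbered pools' deviations was 0.408, -0.00258 and -0.277, and that of other pairs ran from -0.536 to 0.479. With 3 pools per group, these correlations cannot decide whether the numbers pair the pools. The block changed no call of a member. With a pool left out, 0 to 220 genes were called higher and 0 to 211 lower, with 0 of either without pool 2 labelled Rbm47-IKO (edgeR, 1729 at an unadjusted p under 0.05), and 0 to 1 transcription factors higher. The cause was not tested. The log2 fold changes then ranged from -0.22 to 0.028 for Cd3g, -0.15 to 0.25 for Cd8a, -0.26 to 0.052 for Itgae, -0.070 to 0.22 for Gzma and -0.21 to 0.073 for Cd7. Those of Cd3e (0.059 to 0.26), Gzmb (0.15 to 0.62), Ccl5 (-0.26 to -0.0043), Cd160 (-0.79 to -0.34) and Cd8b1 (-1.03 to -0.33) kept their sign. Among partners and list genes the range crossed 0 for Cd3d (-0.34 to 0.10), Cdh1 (-0.0053 to 0.15), Tnfrsf14 (-0.035 to 0.28), Prf1 (-0.40 to 0.30), Il15 (-0.095 to 0.10), Lck (-0.13 to 0.18), Zap70 (-0.22 to 0.077), Cd244a (-0.30 to 0.053), Ctsw (-0.28 to 0.11), Itga1 (-0.60 to 0.24) and Btnl1 (-0.11 to 0.071), and among similar genes for Runx3 (-0.25 to 0.0039), Ift140 (-0.24 to 0.019), Lypd8 (-0.30 to 0.083) and Gm15545 (-0.25 to 0.14). Log2 ratios crossed 0 for Cd8a (-0.25 to 0.029), Gzma (-0.28 to 0.13) and Gzmb (-0.071 to 0.55) over Cd3e. Without crossing 0, the range was wide for Ccl5 (-0.41 to -0.18), Cd7 (-0.40 to -0.057) and Itgae (-0.34 to -0.15) over Cd3e, and for Itgb7 (-0.46 to -0.21), Sectm1b (-0.25 to -0.063), Cd247 (-0.53 to -0.17), Fyn (-0.24 to -0.083) and Ccl25 (-0.26 to -0.11). Rbm47 passed with library size only (edgeR adjusted p = 0.0473) and with DESeq2 (adjusted p = 0.00942). Of the 10 members, Cd8b1 had the fewest counts, 11 to 36 per pool.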
